A study of Mus musculus with 8 samples.

Results

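The genes described are 31 that encode the transporters and enzymes of glucose uptake, glycolysis, lactate production and the pentose phosphate pathway. They were chosen by name from textbook pathways, and all 31 were found among the 27710 gene rows of each count table. Total RNA was sequenced from 8 cultures of mouse lineage-depleted bone marrow, that is, marrow from which mature blood cells had been removed. The cells were grown in serum-containing medium with added cytokines, which all groups shared. Of the 2 genotypes, the first was labelled WT, with no statement of whether these cells carried Cre. The second was labelled Vav-iCre+; Alkbh5fl/fl, in which a recombinase expressed throughout blood cells removes a floxed Alkbh5 gene. Alkbh5 is an RNA demethylase that removes the m6A mark. In each genotype 3 cultures were fed 100 µM 4-thiouridine (s4U), a uridine analogue taken up into new RNA, for 2 h, and 1 culture was labelled as having received no agent. TimeLapse chemistry, which lets incorporated s4U be read as C, was part of the protocol. The tables analysed hold reads per gene and so measure RNA abundance, not synthesis or decay.

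Alkbh5 was measured at 194, 170.2 and 206 CPM, reads scaled to a common library size, in the WT fed cultures 1 to 3, and at 163 CPM in the unlabelled WT culture. It was at 0, 0.137 and 0.125 CPM in the fed Vav-iCre+; Alkbh5fl/fl cultures, called Alkbh5-deficient below, and at 0.109 CPM in the unlabelled one, as the labels say. Reads assigned to genes ranged from 5723245 to 8615997 per library. The libraries numbered 1 of both genotypes stood apart. Reads in no gene or in several made up 38.5% and 39.1% of their totals, against 49.7% to 52.8% in the other 6. WT fed library 3 stood apart in other ways: the non-coding Gm26917 took 14.2% of its gene reads, against 6.33% to 8.34% elsewhere, and 6 stromal markers summed to 1878 CPM and 8 megakaryocyte markers to 397 CPM, the highest of all libraries. Stem and progenitor markers were present in every library (Kit 71.8 to 95.2 CPM, Cd34 47.0 to 89.3 CPM, Flt3 20.4 to 32.0 CPM), and so was Mpo, a granulocyte precursor gene, at 3011 to 8035 CPM. Fed libraries 1 and 3 of both genotypes held 0 to 2 counts of Xist, an RNA of female cells, and fed libraries 2 held 13896 and 17471. Both unlabelled libraries held Xist (8770 and 9147 counts) as well as the Y-linked Ddx3y (299 and 511 counts). Feeding therefore cannot be told apart from the source of the cells. Ddx3y was at 0 counts in both fed libraries 2 and at 200 to 552 counts in the other fed libraries. Sex thus varied within each fed group and went with the library number, and no fit had a term for sex. The labels do not tie cultures of a group to different animals, and the counts do so only where sex differs. The p-values therefore reflect only how far these libraries vary, and part of that may be technical.

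Glycolysis splits glucose into pyruvate. In its preparatory steps hexokinases phosphorylate glucose, glucose-6-phosphate isomerase and phosphofructokinase form fructose-1,6-bisphosphate, and aldolase cuts that sugar. In the payoff steps, from Gapdh to pyruvate kinase, ATP and NADH are recovered, and lactate dehydrogenase regenerates NAD+. The pentose phosphate pathway branches off at glucose-6-phosphate: its oxidative arm makes NADPH and its other arm makes and recycles ribose phosphates. Several steps have isoenzymes encoded by separate genes, and blood stem cells, their dividing progeny and granulocytes are known to rely on glycolysis to different degrees.

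The upstream sequences of 4 members are shown for a reason each: Pfkl and Pfkp encode subunits of 1 enzyme whose levels went opposite ways between unlabelled and fed cultures, and Hk2 and Pgk1 hold motifs long described in glycolytic promoters. They are the 250 bases before the RefSeq start, read 5′ to 3′ on the gene's strand, in build GRCm38.p6: Pfkl at chr10:78009808-78010057 (minus), Pfkp at chr13:6648772-6649021 (minus), Hk2 at chr6:82774455-82774704 (minus) and Pgk1 at chrX:106186850-106187099 (plus). Capitals mark ACGTG, the core of the hypoxia response element, and GGGCGG, the GC box, on either strand.
Pfkl: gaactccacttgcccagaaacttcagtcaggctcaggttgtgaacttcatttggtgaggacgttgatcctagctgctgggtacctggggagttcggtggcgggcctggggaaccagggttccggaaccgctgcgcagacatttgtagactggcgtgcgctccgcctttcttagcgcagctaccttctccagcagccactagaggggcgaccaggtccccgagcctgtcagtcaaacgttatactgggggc
Pfkp: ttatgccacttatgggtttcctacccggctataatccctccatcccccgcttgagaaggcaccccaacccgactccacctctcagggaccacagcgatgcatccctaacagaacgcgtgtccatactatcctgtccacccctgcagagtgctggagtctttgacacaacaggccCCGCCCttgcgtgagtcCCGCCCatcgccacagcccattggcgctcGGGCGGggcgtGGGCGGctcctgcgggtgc
Hk2: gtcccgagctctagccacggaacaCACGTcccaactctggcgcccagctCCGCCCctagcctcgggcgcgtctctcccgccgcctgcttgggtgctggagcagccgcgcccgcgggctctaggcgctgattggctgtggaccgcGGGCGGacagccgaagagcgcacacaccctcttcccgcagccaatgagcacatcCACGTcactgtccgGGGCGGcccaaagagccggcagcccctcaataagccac
Pgk1: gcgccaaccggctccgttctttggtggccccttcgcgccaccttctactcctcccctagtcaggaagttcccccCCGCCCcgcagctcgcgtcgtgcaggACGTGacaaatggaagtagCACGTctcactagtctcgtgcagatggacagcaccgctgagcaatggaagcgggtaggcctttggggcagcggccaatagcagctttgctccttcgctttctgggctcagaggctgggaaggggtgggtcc

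Pfkl held neither motif in this window, and Pfkp held 4 GC boxes and no ACGTG. The Pfkl window is upstream of the RefSeq start only. In the GENCODE annotation Pfkl starts at chr10:78010083 on the minus strand, so the whole window lies inside that gene. Pfkl and Pfkp are therefore not compared over like regions. Hk2 held 2 ACGTG and 3 GGGCGG, and Pgk1 held 2 and 1. Of the 30 members with a RefSeq entry (Slc2a3 was not matched), 12 held ACGTG in at least 1 of their starts, or 40%, against 18.5% of 27025 genes. CACGTG, the E-box, which contains ACGTG, was in 4 of 30 members (13.3%) against 6.86% of all genes, and GGGCGG was in 22 of 30 (73.3%) against 35.4%. Ldha held up to 5 matches of ACGTG in a single one of its 2 starts, the highest count of any member. Each CACGTG gives 1 match on each strand, and Ldha held up to 2 CACGTG in a start. Members with several annotated starts had more sequence to search, and over single starts the ACGTG share was 34.9% for members and 16.6% for all genes. A match describes letters and not binding.

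In the WT fed cultures Pkm, pyruvate kinase, had the highest level for its length, 450 ± 133 CPM per kb of its longest coding transcript (SD, n = 3). Aldoa followed at 335 ± 74.9 CPM per kb, then Taldo1 at 299 ± 63.6, Tkt at 235 ± 44.6, Eno1 at 212 ± 54.3, Ldha at 207 ± 32.1 and Gpi1 at 191 ± 45.6 CPM per kb. Pkm and Aldoa differed by less than the SD of Pkm but more than that of Aldoa, Taldo1 and Tkt by slightly more than either SD, and the other neighbours by less than their SDs. Tkt and Taldo1, transketolase and transaldolase, which link the pentose phosphates back to glycolysis, were thus in the same range as the abundant glycolytic enzymes. The transporters were lower on this scale: Slc16a1 (lactate and pyruvate, MCT1) was at 21.2 ± 1.80 CPM per kb and Slc2a1 (glucose, GLUT1) at 18.1 ± 3.71 CPM per kb. Eno3, the muscle enolase, was at 3.43 ± 0.71 CPM per kb, and Aldoc, the brain aldolase, was lowest at 0.40 ± 0.15 CPM per kb, with 4 to 12 counts per library. The order of these levels depends on the length used. Per kb of annotated exon Pkm was again highest in WT fed cultures, at 219 ± 64.6 CPM per kb. Taldo1 (188 ± 39.9) then came before Aldoa (178 ± 39.9), and Ldha (113 ± 17.6) before Tkt (103 ± 19.5). All members together took 0.494% to 0.753% of gene reads. Their summed level was 4593 and 4777 CPM in the unlabelled WT and Alkbh5-deficient cultures, 7935, 5479.8 and 6924 CPM in WT fed 1 to 3, and 7785, 5757 and 5712 CPM in Alkbh5-deficient fed 1 to 3. Both libraries numbered 1 were highest and both unlabelled libraries were lowest.

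**Figure D1:**
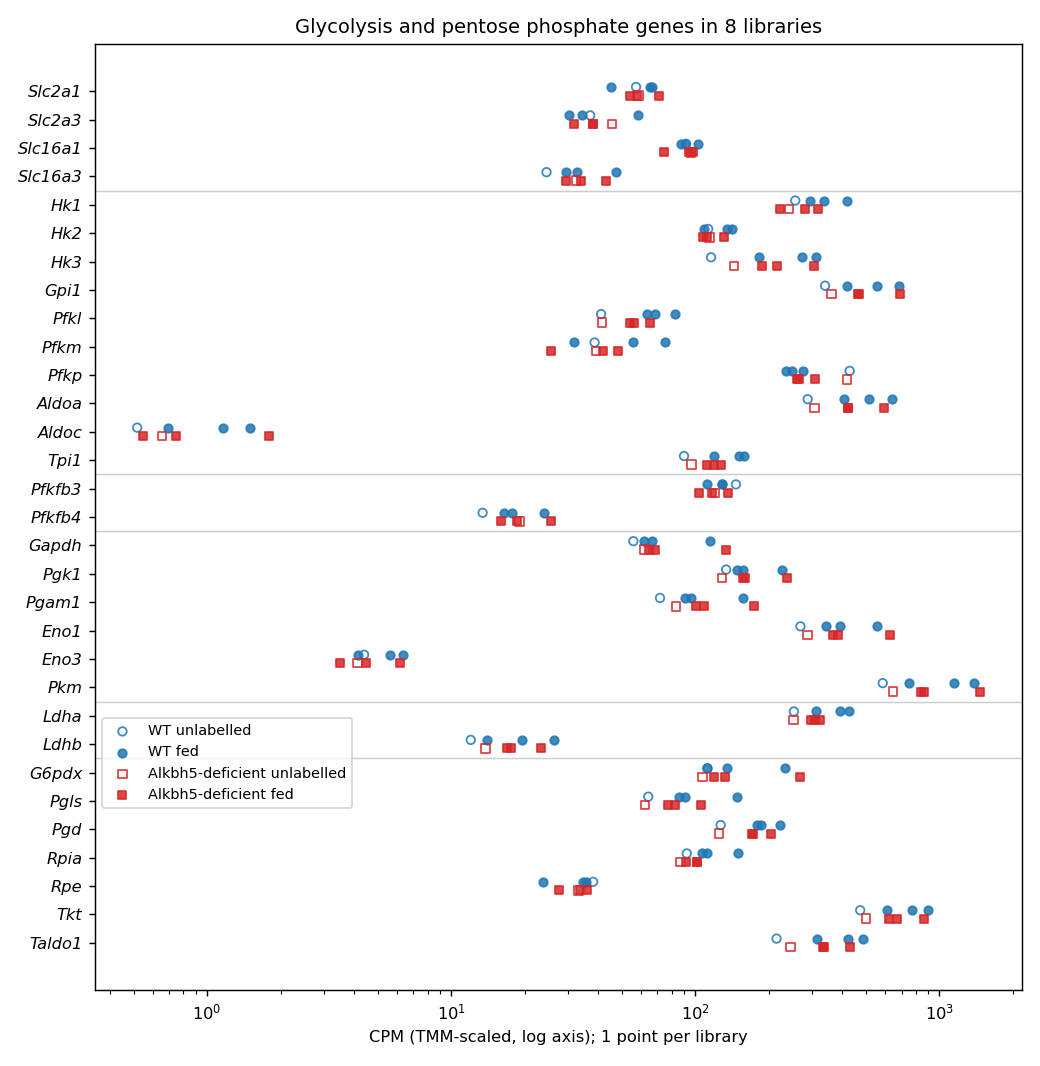
Level of each of the 31 genes in each of the 8 libraries, in CPM on a log axis, grouped by role. Each point is 1 library, with colour and marker shape for genotype. Filled symbols are fed and open symbols unlabelled libraries. Pkm is highest and Aldoc lowest in every library.

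Gapdh, the enzyme that oxidises glyceraldehyde-3-phosphate and a common reference gene, was at 56.9 ± 20.6 CPM per kb in WT fed cultures, below its neighbours in the pathway Aldoa, Pgk1 (97.2 ± 23.9) and Eno1. Gapdh (ENSMUSG00000057666.18, GRCm38 chr6:125161715-125166467, minus strand) has many processed copies in the mouse genome, and reads that match several places may be lost to it. Of 9938 processed pseudogenes in the annotation, 206 matched Gapdh, 58 of them at 95% identity or more. Rows of the count tables existed for 116 copies, and these held 2749 counts over 8 libraries, against 4486 for Gapdh itself. The copies' share of the sum was 36.4% in unlabelled WT, 36.9%, 40.2% and 46.9% in WT fed 1 to 3, 36.3% in unlabelled Alkbh5-deficient, and 29.9%, 42.5% and 40.9% in Alkbh5-deficient fed 1 to 3. The copy with most counts, Gm12070, held 381 and was 99.9% identical to the Gapdh transcript. The Gapdh level is therefore uncertain, and no statement on the other genes is scaled to it. Copies were also found for 10 other members (31 of Ldha, 14 of Pkm, 10 of Aldoa), but their counts were at most 2.89% of the member's own. Only copies annotated as processed pseudogenes were searched, so copies annotated as coding genes are not included.

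No member passed the test between genotypes in the fed cultures: 0 of 30 tested genes had an adjusted p under 0.05 (edgeR quasi-likelihood test, Benjamini-Hochberg adjustment over 13342 genes), where 0.0075% of all genes did, the single gene being Alkbh5. None had an unadjusted p under 0.05, against 1.13% of all genes, and DESeq2 also called 0 and had 0 at an unadjusted p under 0.05. Of the 30 fitted log2 fold changes, 9 were above 0 and 21 below, with a median of -0.08, beside 0.00 over all genes. Aldoc was below the low-count filter in this comparison. In bulk RNA, fewer cells of a type and less RNA per cell cannot be told apart.

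Rpia was the 1 member of 30 whose WT and Alkbh5-deficient fed cultures did not overlap, where 5.68% of all genes did not. Rpia (ENSMUSG00000053604.5, GRCm38 chr6:70765720-70792232, minus strand) encodes ribose-5-phosphate isomerase, which makes the sugar of nucleotides. It was at 112, 106 and 149 CPM in WT fed 1 to 3 and at 101, 102 and 91.7 CPM in Alkbh5-deficient fed 1 to 3, and its unlabelled values were 92.2 (WT) and 86.9 CPM (Alkbh5-deficient). All 3 WT fed values were above all 3 Alkbh5-deficient values, with WT culture 3 standing higher. The fitted fold was 0.801 (95% interval 0.613 to 1.05; edgeR, adjusted p = 1.00), a log2 fold change of -0.32, which was -0.15 without WT fed 3. The interval includes both no difference and a fold of 0.613, so the fed cultures do not show that Rpia was the same in both genotypes.

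In this fit, which has no term for replicate number, the intervals were wide for every role. Among the preparatory enzymes, 8 of 9 tested had a lower fitted value in the Alkbh5-deficient cultures. Pfkm was lowest at a log2 fold change of -0.49 ± 0.34 (SE; interval -1.27 to 0.29). It ran from -0.76 without WT fed 1 to -0.19 without WT fed 3, and was -0.26 without Alkbh5-deficient fed 1. Without WT fed 3, Hk1 was at -0.20, beside -0.35 with it, and Pfkl at -0.17, beside -0.29. Pfkp, at 0.13 ± 0.15 (-0.21 to 0.48), was the preparatory enzyme above 0. Of the payoff enzymes 4 of 6 were above 0, with Pgam1 at 0.15 ± 0.28 and Gapdh at 0.13 ± 0.34. Both lactate dehydrogenases were below 0, Ldha at -0.28 ± 0.16 (-0.64 to 0.09). In the pentose phosphate pathway 5 of 7 were below 0. Pgls, which opens the lactone ring, was at -0.29 and, without WT fed 3, at 0.011. G6pdx, the entry enzyme, was at 0.10 ± 0.37 (-0.74 to 0.94). Of the transporters 3 of 4 were below 0. These signs depended on single libraries: 19 of the 30 changed sign under at least 1 of 15 alternatives, and the median of the 30 ran from -0.22 without the Alkbh5-deficient library 1 to 0.06 without the WT library 1. With the replicate number as a block the genotype test again called 0 of the members, with a smallest adjusted p of 0.945 (edgeR). In that fit 2 members, Hk1 and Pfkm, had an unadjusted p under 0.05, where 2.65% of all genes did. The median SE of the members was 0.146 with the block and 0.225 without it. Hk1 was at -0.35 (interval -0.68 to -0.03) and Pfkm at -0.46 (-0.87 to -0.06). These intervals exclude 0 but are not adjusted for the number of genes tested.

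The 2 unlabelled libraries give a view of genotype with 1 library each and no replicate check. The Alkbh5-deficient value was higher for 20 of 31 members, with a median log2 ratio of 0.07, beside 0.01 over all genes. No member passed the test of whether the genotype difference depended on feeding: 0 of 31 were called (edgeR, 8 libraries), as were 0% of all 14988 genes, 0 of the members had an unadjusted p under 0.05 and 24 of all genes did. The median interaction of the members was -0.19, beside -0.01 over all genes, and their median SE was 0.47. Each unlabelled group had 1 library, so the spread in this test came from the fed libraries. It does not show that the genotype difference was the same with and without feeding.

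**Figure D2:**
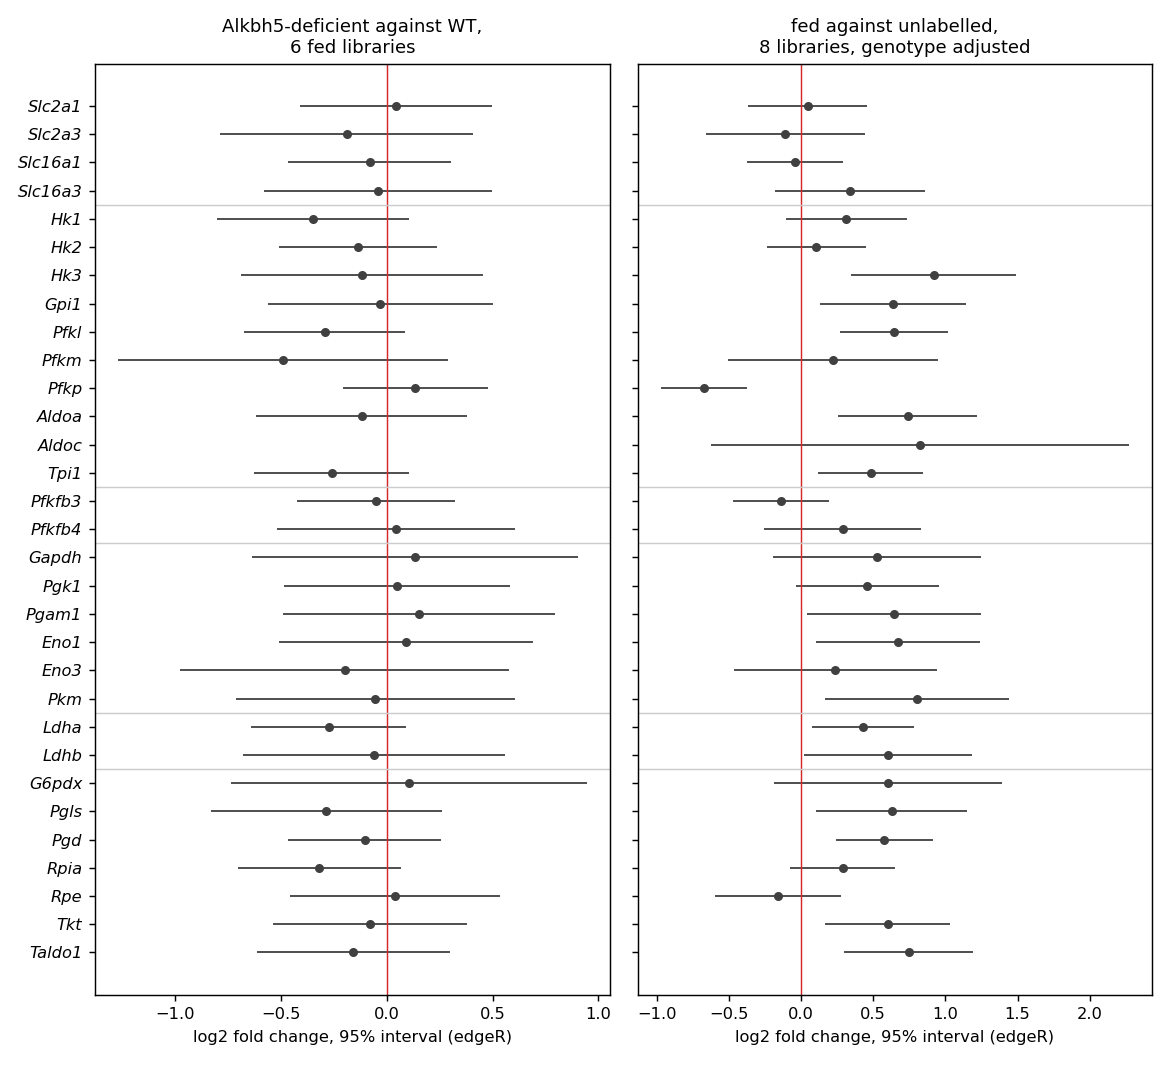
Log2 fold changes between genotypes in 6 fed libraries (left, 30 genes, without Aldoc) and of all 31 genes between fed and unlabelled libraries over 8 libraries with genotype adjusted (right). Points are edgeR estimates and lines 95% intervals, from fits without a term for replicate number. Every interval on the left spans 0, and Pfkp is farthest below 0 on the right.

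The hexokinases were led by Hk3, the isoenzyme typical of myeloid cells, together with Hk1, the widely expressed form bound to mitochondria. Hk3 was at 312, 182 and 274 CPM in WT fed 1 to 3, at 307, 216 and 188 CPM in Alkbh5-deficient fed 1 to 3, and at 116 and 144 CPM in the unlabelled WT and Alkbh5-deficient cultures. Hk1 was at 294, 337 and 417 CPM in WT fed, 223, 319 and 282 CPM in Alkbh5-deficient fed, and 257 and 241 CPM unlabelled. Hk2, the insulin- and hypoxia-responsive form, was at 141, 108 and 134 CPM in WT fed, 132, 111 and 107 CPM in Alkbh5-deficient fed, and 113 and 114 CPM unlabelled. The genotypes overlapped for all 3. Per kb of annotated exon, Hk3 held 52.2% ± 6.60 of hexokinase reads in WT fed and 54.8% ± 7.41 in Alkbh5-deficient fed cultures (SD, n = 3 each; exact permutation p = 0.6, two-sided). Hk2 held a narrow 15.4% to 17.6% in all 6 fed cultures, below the 23.5% and 22.1% of the unlabelled cultures. The order of Hk1 and Hk3 depends on the length used: with the longest coding transcript, Hk1 held 44.6% ± 7.73 and Hk3 42.8% ± 7.19 in WT fed cultures.

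Phosphofructokinase, the committed step of glycolysis, is a tetramer of liver (Pfkl), muscle (Pfkm) and platelet (Pfkp) subunits. Pfkp (ENSMUSG00000021196.14, GRCm38 chr13:6579768-6648777, minus strand) was at 276, 249 and 236 CPM in WT fed 1 to 3, at 309.5, 262 and 267 CPM in Alkbh5-deficient fed 1 to 3, and at 429 and 418 CPM in the unlabelled WT and Alkbh5-deficient cultures. All 6 fed values were below both unlabelled values. Pfkl (ENSMUSG00000020277.10, GRCm38 chr10:77986947-78010083, minus strand) ran the other way, at 63.4, 68.6 and 82.8 CPM in WT fed, 55.9, 65.3 and 54.2 CPM in Alkbh5-deficient fed, and 41.1 and 41.4 CPM unlabelled. Pfkm (ENSMUSG00000033065.14, GRCm38 chr15:98092589-98132451, plus strand) was at 31.8, 55.8 and 75.1 CPM in WT fed, 25.6, 48.2 and 41.9 CPM in Alkbh5-deficient fed, and 38.7 and 39.3 CPM unlabelled. Both libraries numbered 1 were the lowest for Pfkm.

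Per kb of exon, Pfkp supplied 64.3% and 63.5% of phosphofructokinase reads in the unlabelled WT and Alkbh5-deficient cultures and 33.5% to 59.0% in the 6 fed ones. Pfkl supplied 12.4% and 12.6% in the unlabelled cultures and 20.01% to 24.0% in the fed ones. Between genotypes, the Pfkl share was 24.0%, 22.5% and 23.6% in WT fed 1 to 3 and 21.4%, 22.4% and 20.01% in Alkbh5-deficient fed 1 to 3. These values did not overlap, by a margin of 22.5% against 22.4%, and the exact permutation test gave p = 0.1 (two-sided, 3 against 3), the smallest it can give, with an adjusted p of 0.87 over the 12 isoenzyme shares tested. Scaled to the longest coding transcript, Pfkp held 62.0% ± 8.17 in WT fed cultures and 80.9% in the unlabelled WT culture. Per kb of exon Pfkp led in 5 of the 6 fed libraries, and in WT fed 3 Pfkm held 42.8%, above the 33.5% of Pfkp. This order depends on the length used. With the longest coding transcript, Pfkp held 54.1% to 75.8% and Pfkm 9.01% to 24.8% over the 6 fed libraries, so Pfkp led in all of them.

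The other families had a dominant member. Aldoa made up 99.8% of aldolase reads per kb of exon in WT fed cultures. Aldoa was at 637, 405 and 513 CPM in WT fed 1 to 3, 596, 421 and 421 CPM in Alkbh5-deficient fed, and 289 and 308 CPM unlabelled, while Aldoc was at 1.496, 0.690 and 1.16, then 1.79, 0.547 and 0.750, then 0.517 and 0.653 CPM in the same order. Eno1 held 96.0% ± 1.58 of enolase reads in WT fed and 96.7% ± 1.47 in Alkbh5-deficient fed cultures. It was at 553, 343 and 392 CPM in WT fed, 628, 365 and 383 CPM in Alkbh5-deficient fed, and 269 and 288 CPM unlabelled, and Eno3 was at 4.16, 6.33 and 5.62, then 4.48, 6.15 and 3.50, then 4.40 and 4.13 CPM. Ldha, which favours lactate formation, held 89.8% ± 3.27 and 88.5% ± 1.92 of lactate dehydrogenase reads. Ldha was at 389.9, 311 and 425 CPM in WT fed, 324, 309.6 and 298 CPM in Alkbh5-deficient fed, and 253 and 253 CPM unlabelled. Ldhb was at 26.4, 19.6 and 14.0 CPM in WT fed, 16.9, 23.2 and 17.6 CPM in Alkbh5-deficient fed, and 12.0 and 13.8 CPM unlabelled. For both, all 6 fed values were above both unlabelled values.

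Of the reads of Slc2a1 and Slc2a3 together, Slc2a1 held 74.9% ± 6.24 per kb of exon in WT fed and 77.6% ± 1.74 in Alkbh5-deficient fed cultures, and 63.9% ± 7.81 and 67.1% ± 2.21 with the longest coding transcript as length. Slc2a1 was at 65.5, 45.0 and 66.3 CPM in WT fed 1 to 3, 70.8, 54.0 and 57.6 CPM in Alkbh5-deficient fed, and 57.2 and 58.6 CPM unlabelled. Slc2a3, the high-affinity GLUT3, was at 58.4, 34.3 and 30.3 CPM in WT fed, 38.3, 31.8 and 38.0 CPM in Alkbh5-deficient fed, and 37.1 and 45.5 CPM unlabelled. For neither did the fed cultures separate from the unlabelled ones. Slc16a1 was at 91.0, 103 and 87.5 CPM in WT fed, 74.3, 98.1 and 94.1 CPM in Alkbh5-deficient fed, and 91.7 and 96.1 CPM unlabelled. Slc16a3, the lactate exporter MCT4, was at 47.4, 29.6 and 32.8 CPM in WT fed, 43.2, 29.6 and 34.0 CPM in Alkbh5-deficient fed, and 24.6 and 32.5 CPM unlabelled. The libraries numbered 1 held the highest Slc16a3 shares, 30.2% and 32.6% of the pair per kb of exon, against 19.3% to 23.8% in the other 4 fed libraries. Pfkfb3 and Pfkfb4 set the level of fructose-2,6-bisphosphate, the activator of phosphofructokinase. Pfkfb3 was at 129, 112 and 128 CPM in WT fed, 103, 117 and 137 CPM in Alkbh5-deficient fed, and 147 and 121 CPM unlabelled, and Pfkfb4 was at 23.9, 17.7 and 16.5, then 25.7, 18.6 and 16.0, then 13.5 and 19.0 CPM in the same order.

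**Figure D3:**
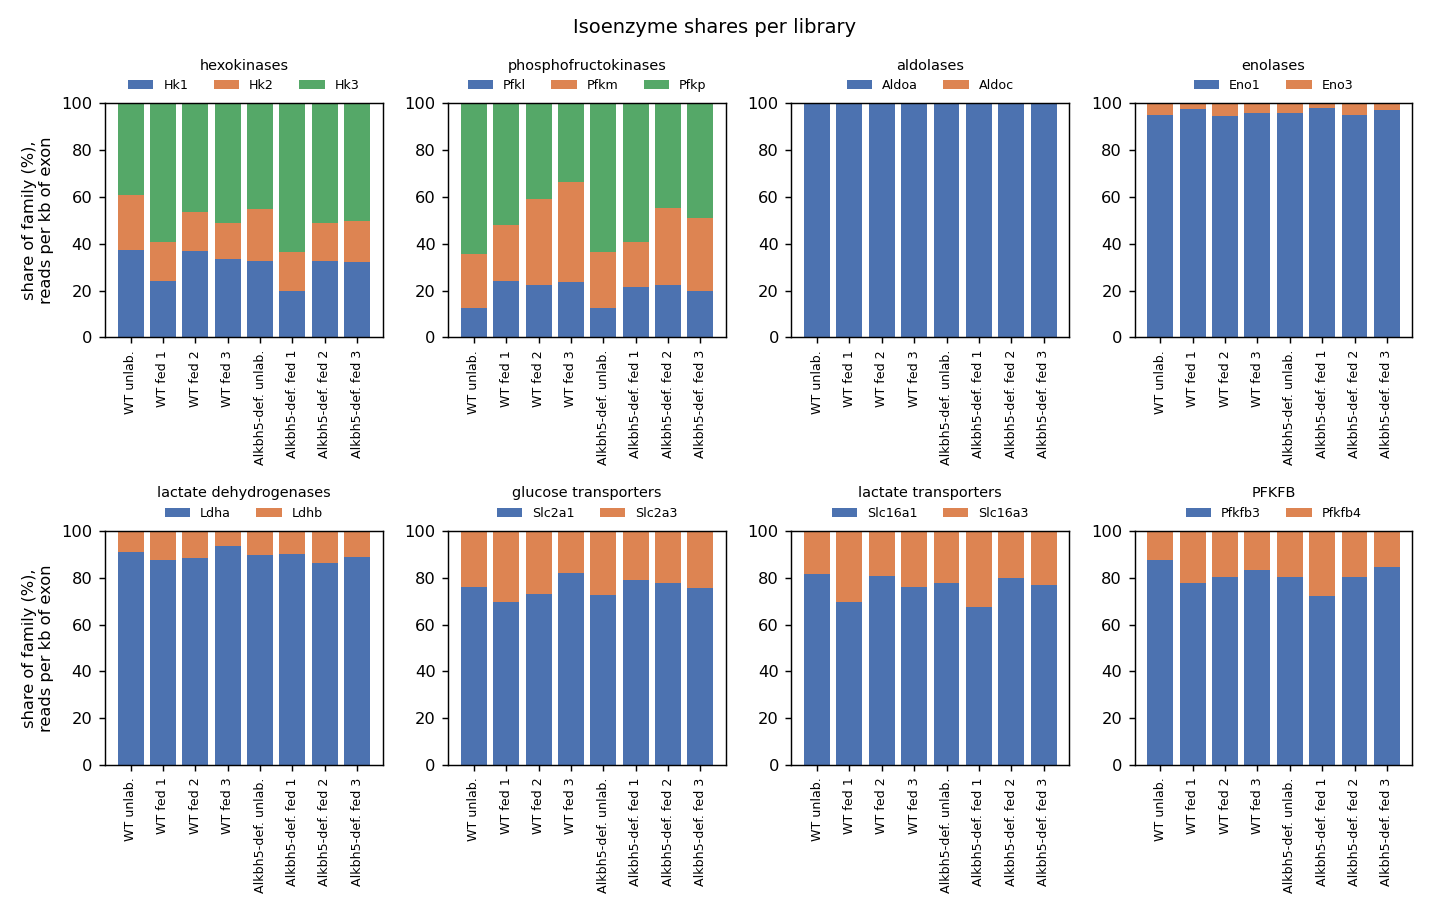
Share of each isoenzyme in its family in each library, in percent of reads per kb of annotated exon, for 8 families. Each bar is 1 library; the Pfkp share is 64.3% and 63.5% in the unlabelled libraries and 33.5% to 59.0% in the fed ones, while Aldoa and Eno1 dominate their families in every library.

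Between fed and unlabelled cultures, most members had higher fitted values in the fed cultures, without passing the main test. Of 31 members 26 had a fold change above 0 and 5 below, with a median log2 fold change of 0.48, beside 0.03 over all genes, of which 52.1% were above 0. None of the 31 had an adjusted p under 0.05 (edgeR over 14988 genes; 0.0267% of all genes did), and the smallest was 0.165. At an unadjusted p under 0.05 there were 15 members, or 48.4%, against 19.6% of all genes. DESeq2 called 6 of the 29 members it gave an adjusted p, against 5.4% of all genes: Hk3 (adjusted p = 0.0244), Pgd (0.0244), Taldo1 (0.0244), Pfkl (0.0291) and Aldoa (0.0329) higher, and Pfkp lower (0.00459). All 6 fed values lay above both unlabelled values for 15 of 31 members, where 14.7% of all genes showed this, and below for 1, Pfkp, where 16.2% of all genes did.

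The members DESeq2 called came from the preparatory steps and the pentose phosphate pathway. Hk3 had a fitted fold of 1.89 (interval 1.27 to 2.81), and Pfkl of 1.56 (1.21 to 2.02). Pfkp had a fitted fold of 0.628 (0.511 to 0.772; edgeR, adjusted p = 0.165). Taldo1 was at 0.74 ± 0.20 on the log2 scale, Aldoa at 0.74 ± 0.21 and Pgd, 6-phosphogluconate dehydrogenase, which makes NADPH, at 0.58 ± 0.15. Taldo1 was at 486, 315 and 423 CPM in WT fed 1 to 3, 429, 335 and 336 CPM in Alkbh5-deficient fed, and 215 and 245 CPM unlabelled. Pgd was at 221, 178 and 185, then 204, 172 and 170.2, then 127 and 125 CPM in the same order. Both genes had all 6 fed values above both unlabelled values. All 6 payoff enzymes were above 0, from 0.24 for Eno3 to 0.80 ± 0.28 for Pkm. Pkm was at 1386, 747 and 1151 CPM in WT fed 1 to 3, 1470.2, 864 and 841 CPM in Alkbh5-deficient fed, and 586 and 646 CPM unlabelled. Its 6 fed values were all above both unlabelled ones but spread widely among themselves. The 4 transporters lay between -0.11 and 0.34, with 0 of 4 separating fed from unlabelled cultures.

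Markers of granulocytes and their precursors were also higher in the fed libraries. Summed over 14 neutrophil markers, the level was 5174 and 5975 CPM in the unlabelled libraries, 12178 and 13418 CPM in the fed libraries numbered 1, and 6908 to 8172 CPM in the other 4 fed libraries. All 14 had a fitted fold change above 0, with a median of 0.71, and 6 of the 14 had all fed values above both unlabelled ones. The 12 monocyte and macrophage markers summed to 2346 and 2377 CPM unlabelled, 5634 and 6449 CPM in the libraries numbered 1, and 2357 to 3394 CPM in the others. Of 9 mast cell, basophil and eosinophil markers 7 were tested, all 7 above 0 with a median of 0.66, and the 9 summed to 507 and 605 CPM unlabelled and 741 to 1722 CPM in the fed libraries. The 9 B cell markers had a median of -0.31. None of these markers was at 0 in all libraries. Their part in the members' difference was not tested. Without both libraries numbered 1 the median of the members was 0.38, beside 0.02 over all genes, with 0 called and 17 of 30 at an unadjusted p under 0.05 (21.2% of all genes). With the length of the annotated exons as an offset, the median was 0.44, 28 members were above 0 and 3 below, and Pfkp was at -0.37 ± 0.16.

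The libraries numbered 1 differed from the other fed libraries in many members. In both of them, 17 of 31 members were above all 4 other fed libraries, where 21.7% of all genes were, and Pfkm was below all 4. G6pdx (ENSMUSG00000031400.10, GRCm38 chrX:74409483-74429194, minus strand), glucose-6-phosphate dehydrogenase, was at 233 and 267 CPM in the WT and Alkbh5-deficient libraries numbered 1, at 135 and 119 CPM in those numbered 2, and at 112 and 132 CPM in those numbered 3. Gapdh was at 115 and 134 CPM in the libraries numbered 1, 61.7 and 64.9 CPM in those numbered 2, and 66.3 and 68.3 CPM in those numbered 3. The ratio of means was 2.01 for G6pdx, 1.90 for Gapdh, 1.67 for Pgam1, and 1.59 for Pkm and for Eno1. It was close to 1 for Ldha (1.06) and Tpi1 (1.04), and Pfkm (0.52), Hk1 (0.76), Pgls (0.80) and Pfkl (0.88) were below 1.

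A term for replicate number over the 6 fed libraries, chosen after these values were seen, called 0 of 31 members (edgeR; 0.67% of all genes were called). The smallest adjusted p values were 0.0542 for G6pdx and 0.0550 for Gapdh, and 12 members had an unadjusted p under 0.05, against 18.1% of all genes. The libraries numbered 1 also held the highest neutrophil and monocyte sums given above. They held 22.3 and 52.9 CPM of 9 B cell markers, against 128 to 229 CPM in the other 4 fed libraries, and 513 and 621 CPM of 12 erythroid markers, against 926 to 1182 CPM. The 6 stromal markers summed to 7.98 and 13.9 CPM there and to 309 to 1878 CPM in the other fed libraries. What part of the members' difference goes with these markers was not tested.

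**Figure D4:**
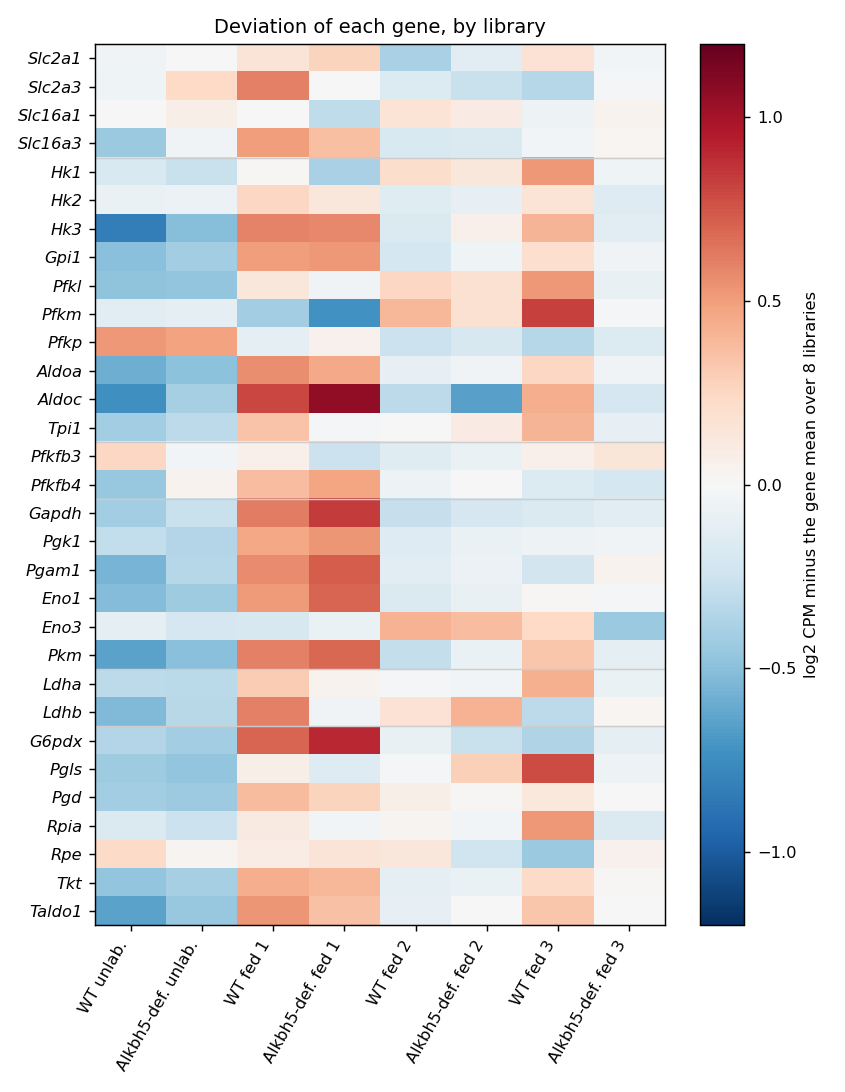
Log2 CPM of each of the 31 genes minus the gene's own mean over 8 libraries, by library, with rows grouped by role. Red is above and blue below the gene's mean; the columns numbered 1 are mostly red, with Pfkm blue, and the unlabelled columns are mostly blue, with Pfkp red.

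Genes around these pathways showed no called genotype difference either. Of 69 genes of gluconeogenesis, glycogen, hexosamine, fructose and galactose metabolism, the pyruvate dehydrogenase step and related transport, 46 were tested between genotypes, 0 were called (edgeR; DESeq2 also 0) and 24 were above 0, with a median log2 fold change of 0.01. The 2 with the smallest p were Galk1, galactokinase, at 37.8 ± 6.78 CPM in WT fed and 27.1 ± 1.15 CPM in Alkbh5-deficient fed cultures (log2 fold change -0.48 ± 0.18), and Pgm1, at 21.9 ± 2.67 and 16.0 ± 1.97 CPM (-0.45 ± 0.20). Between fed and unlabelled cultures, 48 were tested, 37 were above 0 with a median of 0.24, and 0 were called, with 11 (22.9%) at an unadjusted p under 0.05, beside 19.6% of all genes, and 2 of 37 called by DESeq2, the same 5.4% as over all genes. Bsg, the chaperone of the lactate transporters, was at 236 ± 23.1 CPM over 6 fed cultures and 159 and 171 CPM unlabelled (log2 fold change 0.52 ± 0.14, adjusted p = 0.165, edgeR). Khk, ketohexokinase, was at 30.1 ± 6.38 CPM fed and 15.8 and 17.8 CPM unlabelled.

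Of 25 genes of the hypoxia response that are not members, 20 were tested between genotypes, with 0 called and a median of 0.01. Egln2, an oxygen-sensing prolyl hydroxylase, was at 65.8 ± 22.8 CPM in WT fed and 50.3 ± 1.69 CPM in Alkbh5-deficient fed cultures, and Ddit4 at 96.5 ± 46.8 and 67.3 ± 25.7 CPM. Against unlabelled cultures 23 were tested, with 10 above 0, 13 below and a median of -0.04, and 0 were called by edgeR or DESeq2, with 2 (8.70%) at an unadjusted p under 0.05, beside 19.6% of all genes. These were Kdm3a, at 46.9 ± 7.16 CPM fed against 71.8 and 68.6 CPM unlabelled, and Hif1a, the hypoxia-inducible factor subunit, at 148 ± 24.6 CPM fed against 232 and 209.9 CPM unlabelled (adjusted p = 0.170 for both, edgeR). Without both libraries numbered 1 the median of the hypoxia list was -0.23. Its difference from the members was not tested.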

How the data were processed

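RNA was counted per gene in 8 libraries. Each deposited table holds whole-number read counts per gene from the authors, not normalized. The tools listed per the submitters' processing notes are HTSeq, STAR, HISAT2, cutadapt, Picard and DESeq2, and the builds GRCm38 and mm10. What each did, its version and whether counting used strand: not given in the sources used here. Overlapping genes may therefore share reads. Rows for reads in no gene (or in several) held 38.5% to 52.8% of a library and were left out of sizes and fits. Gene counts per library were 5723245 to 8615997 counts.

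Tests used edgeR 4.0.16 (R 4.3.3), its robust quasi-likelihood fit after TMM scaling and the default filter on low counts, and p-values were adjusted by Benjamini-Hochberg over all genes tested, with 0.05 as threshold. Genotypes were compared in the 6 fed libraries. The contrast of fed with unlabelled libraries, adjusted for genotype, and its interaction with genotype used all 8. DESeq2 1.42.0, other filters, scalings and lengths and leaving out each library were alternatives. CPM values are TMM-scaled over 8 libraries. Levels were set per kb by merged exons or by the longest coding transcript of GENCODE M21 (27070 symbols matched), and isoenzyme shares were compared by exact permutation tests. Processed copies were found with BLAST+ 2.17.0. Promoters came from RefSeq (GRCm38.p6). Intervals on the ratio of the unlabelled pair cover counting error only.

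Libraries with the same number deviated together from their group means (correlations over genes of 0.68, 0.29 and 0.19 for numbers 1, 2 and 3). The numbers in the titles were used as a block in an alternative fit, and the main fit had no block. WT 2 with Alkbh5-deficient 3 and WT 3 with Alkbh5-deficient 2 were each at 0.35, above the matched values of numbers 2 and 3. These correlations therefore separate number 1 and do not tell numbers 2 and 3 apart. Xist does tell them apart, at 17471 (WT) and 13896 (Alkbh5-deficient) counts in fed libraries 2 and at 0 and 2 in fed libraries 3. The members and gene lists were chosen with earlier results of these data known. CPM in every library is printed for members past the adjusted threshold, for members of a family with several isoenzymes and for members whose genotypes do not overlap in fed libraries. Of the related lists the 2 genes with the smallest p per contrast are named where none passed. Gapdh, Pkm, G6pdx, Pgd and Taldo1 are also printed by library and were chosen after their values were seen. The fit was tested on simulated counts. The smallest chi-square per gene between libraries was 3.12, for the unlabelled pair, so no library was counted as a duplicate.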

Additional observations from a re-analysis of the deposited data

Results flagged for a closer look

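Reads that fell in a member and an overlapping gene were counted to neither, and no comparison uses them. Pkm and Gm49759 shared 337 such reads over 8 libraries (27 to 51 per library), which is 0.623% of the reads counted to Pkm. Pgls and Fam129c shared 127 (0 to 28 per library), or 2.50% of the reads counted to Pgls. Both were picked out because the signal lies outside the gene rows and above the limit that a count of 0 allows.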

How the results depend on the processing

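The count of members called between genotypes was 0 under all 16 alternatives, the replicate block included, which changed no call, and the interaction count was 0 under all 12. For fed against unlabelled libraries the count was 0 except with DESeq2, which called 6; the cause was not tested. The median log2 fold change of the members ran from -0.22 to 0.06 between genotypes and from 0.38 to 0.57 between fed and unlabelled libraries. Signs of single members changed for 19 of 30 between genotypes and 5 of 31 between fed and unlabelled libraries. With all 8 libraries in an additive fit the genotype values were Gpi1 0.0028, Ldhb 0.005606, Slc16a3 0.072 and Rpe -0.018. Leaving out both libraries numbered 1 they were Ldhb 0.27, Slc2a3 0.11, Slc16a1 0.013, Slc16a3 0.031 and Pfkfb3 0.080. Leaving out 1 library each, the genotype values ran for Hk3 from -0.34 to 0.050, Gpi1 -0.24 to 0.15, Aldoa -0.30 to 0.058, Gapdh -0.28 to 0.47, Pgk1 -0.17 to 0.27, Pgam1 -0.13 to 0.45, Eno1 -0.20 to 0.31, Pkm -0.36 to 0.15, Ldhb -0.25 to 0.18 and Slc2a1 -0.12 to 0.14. They ran for Slc2a3 from -0.36 to 0.15, Slc16a1 -0.16 to 0.037, Slc16a3 -0.20 to 0.19, Pfkfb3 -0.17 to 0.046, Pfkfb4 -0.16 to 0.22, G6pdx -0.35 to 0.48, Pgls -0.43 to 0.011, Rpe -0.11 to 0.15 and Tkt -0.23 to 0.056. Between fed and unlabelled libraries Pfkm was -0.012 within the Alkbh5-deficient libraries, Slc2a1 -0.055 without both numbered 1, Slc2a3 0.14 within WT and 0.031 with the length offset, Slc16a1 0.030 within WT and 0.032 without both numbered 1, and Pfkfb3 0.010 with the length offset. Leaving out 1 library each gave Pfkm -0.026 to 0.48, Slc2a1 -0.012 to 0.12, Slc2a3 -0.34 to 0.14 and Slc16a1 -0.11 to 0.030. The cause of these changes was not tested. Of 90 values of the isoenzyme shares under alternative settings, 26 moved by more than 1 SD.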

Other observations

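In the unlabelled pair, with 1 library a genotype and intervals that cover counting error only, 2 genes of glycolytic control lay on opposite sides of their WT values. Pfkfb4 in the Alkbh5-deficient library was 141% of its WT value (95% interval 110% to 182%), and Pfkfb3 was 82.2% (75.6% to 89.3%). The lactate exporter Slc16a3 was 132% (110.0% to 160%), Hk3 124% (114% to 135%) and Slc2a3 122% (105% to 143%). Taldo1 was 114% (107% to 122%), and Rpia was 94.2% (85.1% to 104%). These genes were chosen after their values were seen, and the spread between cultures of the unlabelled groups is unknown. The share of all genes with such ratios is not given. In the fed cultures the log2 fold change between genotypes was 0.04 for Pfkfb4, -0.05 for Pfkfb3, -0.04 for Slc16a3 and -0.12 for Hk3. It was -0.19 for Slc2a3, -0.16 for Taldo1 and -0.32 for Rpia, and the main-fit intervals of all of these genes spanned 0.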
